A study of Homo sapiens with 26 samples.

Results

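The proteins that bring nascent chains to the endoplasmic reticulum (ER), thread them through its membrane, cut off their signal peptides and attach N-glycans are encoded by a small group of genes, of which 31 were listed by symbol. Of these, 30 were found among the 12325 transcripts that the files hold. GENCODE symbols named 28, and SPCS1 and SRP72 were named only by a transcript table of the study; MAGT1 is not analysed here. The 30 fall into the signal recognition particle (SRP9, SRP14, SRP19, SRP54, SRP68 and SRP72), its receptor (SRPRA and SRPRB), the Sec61 translocon with its partners (SEC61A1, SEC61B, SEC61G, SEC62 and TRAM1), the translocon-associated protein complex TRAP (SSR1 to SSR4), the signal peptidase complex (SPCS1, SPCS2, SPCS3, SEC11A and SEC11C) and oligosaccharyltransferase (RPN1, RPN2, DDOST, DAD1, OST4, OSTC, STT3A and STT3B). The members were found by gene symbol, and the list was drawn up with earlier results of these data known.

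SRP binds a hydrophobic signal as it leaves the ribosome and carries the ribosome to the SRP receptor on the ER membrane. The nascent chain then enters the Sec61 channel, TRAP sits beside the channel, signal peptidase removes the signal peptide, and oligosaccharyltransferase moves a preassembled glycan from dolichol onto asparagine side chains. Liver cells secrete much of the protein of blood plasma through this route. Most members are themselves membrane proteins or bind the membrane, so that many of these mRNAs are translated at the ER.

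All 26 libraries come from Huh7, a cell line of human hepatoma origin, and were read either as ribosome footprints (ribo-seq, 22 libraries) or as fragments of polyadenylated mRNA (mRNA-seq, 4 libraries). PF-06446846 is a small molecule studied for its effect on translation. In study 1, cells received the compound at 1.5 μM or at 0.3 μM, or else DMSO alone (vehicle, 0.5%), for 10 min or 60 min, with 3 replicates of each by ribo-seq. In study 2, cells received 1.5 μM or vehicle for 60 min, with 2 replicates each by ribo-seq and by mRNA-seq. Every group was thus an unmodified cell line in culture, and all cells met cycloheximide (100 μg/mL) at harvest only. The study calls the replicates biological, while the labels give no culture or date, so that p-values measure the spread between these libraries.

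Each library held 6414227 to 22224137 reads on coding sequences (CDS), and a member had from 58 (SRP19) to 23013 (RPN2) reads in a ribo-seq library. Replicates differed by more than sampling noise, with a chi-square per transcript of 4.45 to 51.9 over 22 pairs, so that none was counted as a duplicate. Of 10 hepatocyte or hepatoma markers, 9 were found, all but ALB. Their mean vehicle densities lay between 145 and 5950 reads per kilobase of CDS for each 1000000 CDS reads of the library (RPKM). Their summed density was 10514.5 to 16704.6 RPKM per ribo-seq library. Of 4 fibroblast markers none was found among the transcripts. A gene not found may be among the transcripts left without a name, so that absence here, as for ALB, does not show absence from the cells. The only leukocyte marker found of 4 was LYZ (1798 RPKM), and the only endothelial marker found of 3 stood at 7.77 RPKM. Of the members, 20 were read on the canonical CDS and 8 on another isoform, which the study chose as the most abundant. Among the latter, SRP14 was read on 57 codons in place of 137, SRP19 on 111 in place of 145 and STT3A on 614 in place of 706.

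Single codons of DAD1, SSR1 and SSR4 are described below by their footprints in each library, and their surroundings are shown first. Those of DAD1 and SSR4 were chosen after their values were seen. Each window is the reference sequence of GRCh38 along the coding strand, with the codon that lies in the P-site in capitals and 4 codons on either side. All 5 lie in the first 44 codons of their CDS.
DAD1 codon 24, exon 1 of 3, minus strand, chr14:22589086-22589088: actccgcagcgtCTGaagttgctggac
DAD1 codon 44, exon 1 of 3, minus strand, chr14:22589026-22589028: ctgcagttcggtTACtgtctcctcgtg
SSR1 codon 13, exon 1 of 9, minus strand, chr6:7313082-7313084: ctgcttctcttaCTCgtgttccctgcc
SSR1 codon 33, exon 2 of 9, minus strand, chr6:7310010-7310012: ttagcagtggcaCAAgatcttacagag
SSR4 codon 20, exon 1 of 6, plus strand, chrX:153794745-153794747: tccagcctctccCGCtgctcagccgag
The 5 codons in capitals are 5 different codons. SSR1 codon 13 and the 4 codons shown before it are leucine codons, as in the hydrophobic core of many signal peptides.

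With vehicle, the ER targeting and translocation mRNAs carried dense footprints. The median member had 274 RPKM in study 1 at 60 min against 14.4 RPKM for all 12325 transcripts, which placed it at percentile 94.0. The medians were 261 RPKM at 10 min and 258 RPKM in study 2, against 15.6 RPKM for all transcripts in both groups. In each of the 3 vehicle groups, 30 of 30 members lay above the median of all transcripts. The densities are levels of a pooled culture, in which fewer cells making a protein and less synthesis per cell cannot be told apart.

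**Figure D1:**
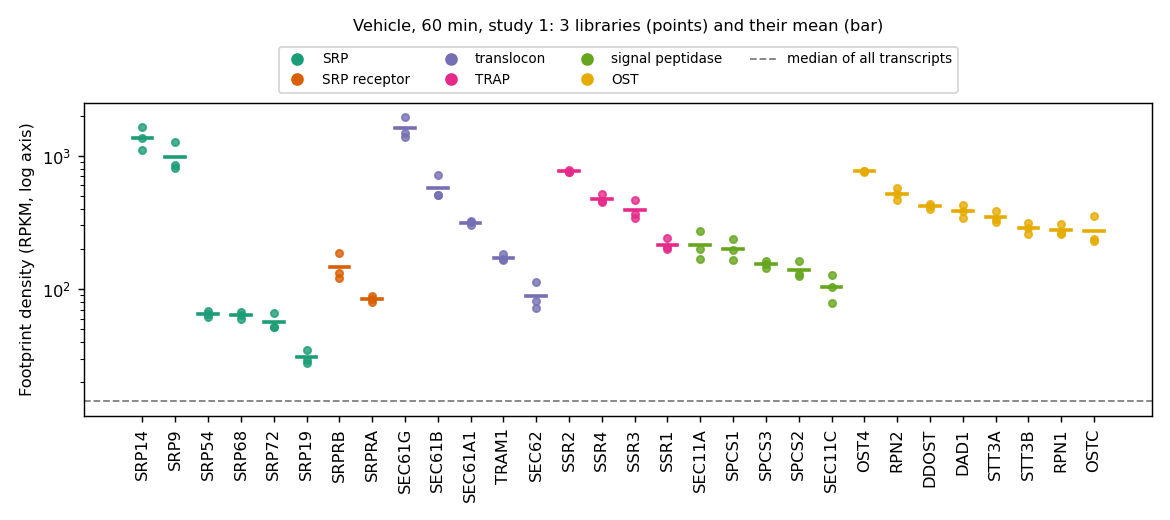
Footprint density of the 30 members with vehicle at 60 min in study 1, in RPKM on a log axis, by complex. Points are the 3 libraries, bars their mean, and the dashed line the median of all transcripts (14.4 RPKM); every member lies above that line, from SRP19 at 30.8 to SEC61G at 1606.

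Subunits of one complex differed widely in footprint density. In SRP, SRP14 and SRP9, which together form the Alu domain that slows elongation, stood at 1362 ± 267 and 982 ± 257 RPKM (SD, n = 3, vehicle at 60 min in study 1), with overlapping libraries. SRP54, the subunit that binds the signal sequence, stood at 65.0 ± 3.83 RPKM, and SRP68 at 63.7 ± 3.84. SRP72 stood at 56.7 ± 8.03 RPKM and SRP19, which helps SRP54 to bind the particle's RNA, at 30.8 ± 3.88. The ratio from the highest to the lowest SRP subunit was thus 44.3. SRP54, SRP68 and SRP72 did not separate beyond their spread, since the values of SRP68 (67.4, 59.7 and 64.1 RPKM) overlap those of both. The value for SRP14 is read on a short isoform, and 5.56% of its 28-base words also occur in ATN1, ATXN1 or ATXN2, so that its level is uncertain. The codon before the stop, which these densities count, held 20.6 times the CDS mean in SRP14 and 13.2 in SRP9, but 4.12 in SRP19. The ratio of 44.3 includes that codon. SRP19, at the lower end of the ratio, was also read on an isoform other than the canonical one, with 111 codons in place of 145.

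The receptor subunit SRPRB, which anchors the receptor in the membrane, stood at 146 ± 34.4 RPKM, and its GTPase partner SRPRA at 84.1 ± 4.72. In the translocon, the small subunits SEC61G (1606 ± 303 RPKM) and SEC61B (576 ± 118) lay above SEC61A1, which forms the channel (314 ± 11.0). TRAM1, which lines the path of some nascent chains, stood at 172 ± 9.98 RPKM and SEC62, which serves post-translational entry, at 88.4 ± 21.2. The ranges over 3 libraries did not overlap between any neighbours of these 5 in that order. These densities count every codon, and the codon before the stop weighs more on a short CDS. In these vehicle libraries it held 23.8 times the CDS mean in SEC61G (69 codons) and 23.7 in SEC61B (97), but 0.0364 in SEC61A1 (477). The order without that codon is not given here. In TRAP the order was SSR2 (764 ± 17.6 RPKM), SSR4 (477 ± 37.98), SSR3 (390 ± 64.7) and SSR1 (215 ± 23.1). The ranges of SSR4 (449 to 520 RPKM) and SSR3 (341 to 463) overlap, while those of SSR2 and of SSR1 stand apart.

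Signal peptidase subunits were closer to each other, from the catalytic SEC11A (214 ± 54.7 RPKM) to its paralog SEC11C (104 ± 24.9). SPCS1 stood at 198 ± 35.6 RPKM, SPCS3 at 153 ± 8.68 and SPCS2 at 139 ± 19.9, and in this order the ranges of neighbours overlap except for SPCS1 and SPCS3. Among oligosaccharyltransferase subunits, OST4, a single-helix peptide of 38 codons here, was highest at 764 ± 7.27 RPKM. RPN2 (516 ± 52.5 RPKM), DDOST (418 ± 16.7) and DAD1 (384 ± 40.2) followed. The 2 catalytic subunits stood at 347 ± 35.1 (STT3A) and 285 ± 26.5 (STT3B), next to RPN1 (276 ± 26.4) and OSTC (273 ± 69.3). In this order OST4, RPN2 and DDOST are separated by their ranges, as is STT3A from STT3B, and the other neighbours overlap. The highest and lowest subunit of each complex were the same genes at 10 min and in study 2, except that RPN1 (247 RPKM) was the lowest oligosaccharyltransferase subunit in study 2.

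Footprints per mRNA, or translational efficiency (TE, a transcript's share of the CDS reads in ribo-seq over its share in mRNA-seq of the same replicate number), were likewise above average. With vehicle in study 2, the median member had a TE of 1.40 against 0.978 for 9698 transcripts with at least 50 reads on average in both assays, at percentile 69.1. Of 30 members, 24 lay above that median. SRP54 had the highest TE of the members (3.94 and 4.87) although its footprint density was among the lowest, since its mRNA stood at only 17.9 and 14.6 RPKM. SEC62 (2.44 and 3.73), SRP9 (2.89 and 3.02), SSR1 (2.91 and 2.75) and SEC61G (2.28 and 2.68) followed. TE counts the codon before the stop, which held 20.5 times the CDS mean in SEC61G but 1.65 in SRP54 (vehicle footprints, study 2).

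The lowest TE belonged to SRPRA (0.668 and 0.612), whose receptor partner SRPRB had 1.27 and 1.49. RPN1 (0.739 in both), SSR4 (0.872 and 0.792), SEC11C (0.813 and 0.908), DDOST (0.905 and 0.831) and OST4 (0.853 and 0.985) were the other members under the median of all transcripts. OST4 and SSR4 were thus among the densest members by footprints but not by footprints per mRNA, with 645 and 542 RPKM of mRNA. In SRP the lowest TE was that of SRP68 (1.11 and 1.17), in the translocon those of TRAM1 (1.2223 and 0.951) and SEC61A1 (1.09 in both). STT3B (1.95 and 1.78) had the highest TE in oligosaccharyltransferase, and SPCS2 (1.75 and 1.98) in signal peptidase.

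Whether PF-06446846 changed how many ribosomes a member carried was tested on the reads of the whole CDS with edgeR over all transcripts, at a false discovery rate (FDR) of 0.1. No member passed in any of 8 comparisons. The share of all transcripts that passed was 0.851% for 1.5 μM at 10 min, 0.0726% for 1.5 μM at 60 min, 0.115% for study 2 by ribo-seq, and 0% for 0.3 μM at either time. It was also 0% for mRNA-seq and for the interaction of 1.5 μM with time, and 0.0339% for TE. At an unadjusted p under 0.05 stood 7 of 30 members (6 of them lower) for 1.5 μM at 10 min, beside 17.7% of all transcripts. With the same limit, 1 of 30 stood in study 2 by ribo-seq, beside 2.97%, 1 in the interaction with time, beside 4.53%, and 0 in each other comparison. DESeq2 called 4 members for 1.5 μM at 10 min (SSR1, SEC11A, DAD1 and OST4), beside 4.67% of all transcripts, and 0 in every other comparison. Both assays of study 2 were made from the same cultures, and with a block by culture 0 members passed for TE, beside 0.110% of all transcripts.

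At 10 min with 1.5 μM, OST4 had the highest log2 fold change. Its CDS reads for each 1000000 of the TMM-scaled library (CPM) were 121, 120 and 117 with 1.5 μM and 85.0, 73.8 and 99.7 with vehicle, so that the groups did not overlap. The log2 fold change was 0.48 (standard error 0.12, adjusted p = 0.120 by edgeR). SEC11A had the lowest, with 87.6, 97.4 and 92.8 CPM against 116, 141 and 119 and again no overlap (log2 fold change −0.44, standard error 0.11, adjusted p = 0.121 by edgeR). DAD1 gave 117, 120 and 111 CPM against 145, 141 and 156 (log2 fold change −0.35, adjusted p = 0.138 by edgeR). The median over the members was −0.09, against 0.01 over all transcripts. Without vehicle replicate 3 at 10 min, which changes the count for all transcripts from 94 to 1656 (14.9%), 7 members passed.

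At 60 min the log2 fold changes were smaller. With 1.5 μM in study 1 they ran from −0.18 (OSTC, standard error 0.17) to 0.34 (OST4, standard error 0.16), and in study 2 from −0.21 (DAD1, standard error 0.07, adjusted p = 0.999 by edgeR) to 0.15 (SPCS1, standard error 0.10). With 0.3 μM they ran from −0.14 (SEC11C) to 0.13 (STT3A) at 10 min and from −0.15 (OSTC) to 0.18 (OST4) at 60 min. In mRNA-seq, SPCS3 was lowest (−0.19, standard error 0.16) and SRP72 highest (0.09, standard error 0.14), and 24 of 30 members lay under 0, with a median of −0.10. For TE the extremes were SSR1 (−0.17, standard error 0.14) and SPCS3 (0.31, standard error 0.21). The interaction of 1.5 μM with time was lowest for SEC61B (−0.18, standard error 0.18) and highest for TRAM1 (0.44, standard error 0.17, adjusted p = 0.856 by edgeR).

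Where on the CDS the ribosomes stood was described by the center of density. The center of density, the mean codon position of a library's reads as a percent of the CDS length, was tested with limma, taking transcripts for which no library had fewer than 10 reads. With 1.5 μM at 10 min, 8 of 30 members passed an FDR of 0.1, and 7 of them lay closer to the start codon. The shares among all transcripts were 10.1% in either direction and 9.47% toward the start. The median shift over members was −2.38 percent of the CDS, against −1.23 over all transcripts, and 24 of 30 members were under 0.

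DAD1, a small membrane subunit of oligosaccharyltransferase, had centers of 47.9, 51.8 and 54.1 with 1.5 μM at 10 min and of 64.4, 63.6 and 63.6 with vehicle. Every treated library lay nearer to the start than every control library. The difference was −12.6 (standard error 1.45, adjusted p = 4.37e-04 by limma). SSR1, a TRAP subunit with a cleaved signal peptide and a calcium-binding lumenal part, gave 41.1, 39.8 and 41.1 against 50.5, 50.1 and 50.6. The groups are tight and far apart (difference −9.70, standard error 1.02, adjusted p = 2.06e-04 by limma).

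OST4 fell from 68.5, 75.2 and 64.5 to 55.5, 51.9 and 56.5, which on its 38 codons is the largest shift of a member (−14.8, standard error 2.18, adjusted p = 0.0028 by limma). SRP9 (−6.30, adjusted p = 0.0151), SEC11C (−6.28, 0.0827), OSTC (−5.72, 0.0289) and SEC11A (−4.06, 0.0810), all by limma, were the other members that moved toward the start. SRPRA alone moved away from it, with 44.4, 43.4 and 42.0 against 40.2, 39.3 and 38.4 (3.95, standard error 1.12, adjusted p = 0.0579 by limma). SRP14 had a larger positive difference (6.31, standard error 2.41), but its groups overlap and it did not pass. Leaving out any 1 library kept DAD1, SSR1 and OST4 past the FDR. SEC11C and SEC11A each lost the call in 4 such omissions and SRPRA in 5. With no trend in the prior variance of limma, 2 members passed, DAD1 and SSR1, beside 0.884% of all transcripts, and OST4 did not (adjusted p = 0.115 by limma). The members called were 3 without 1.5 μM replicate 2, beside 2.64% of all transcripts, and 4 without vehicle replicate 1, beside 5.10%. They were 5 without 1.5 μM replicate 1 (4.73%) or vehicle replicate 2 (4.95%), and 12 without vehicle replicate 3 (12.7%). The plot of the shifts in center of density gives all 30 members.

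**Figure D2:**
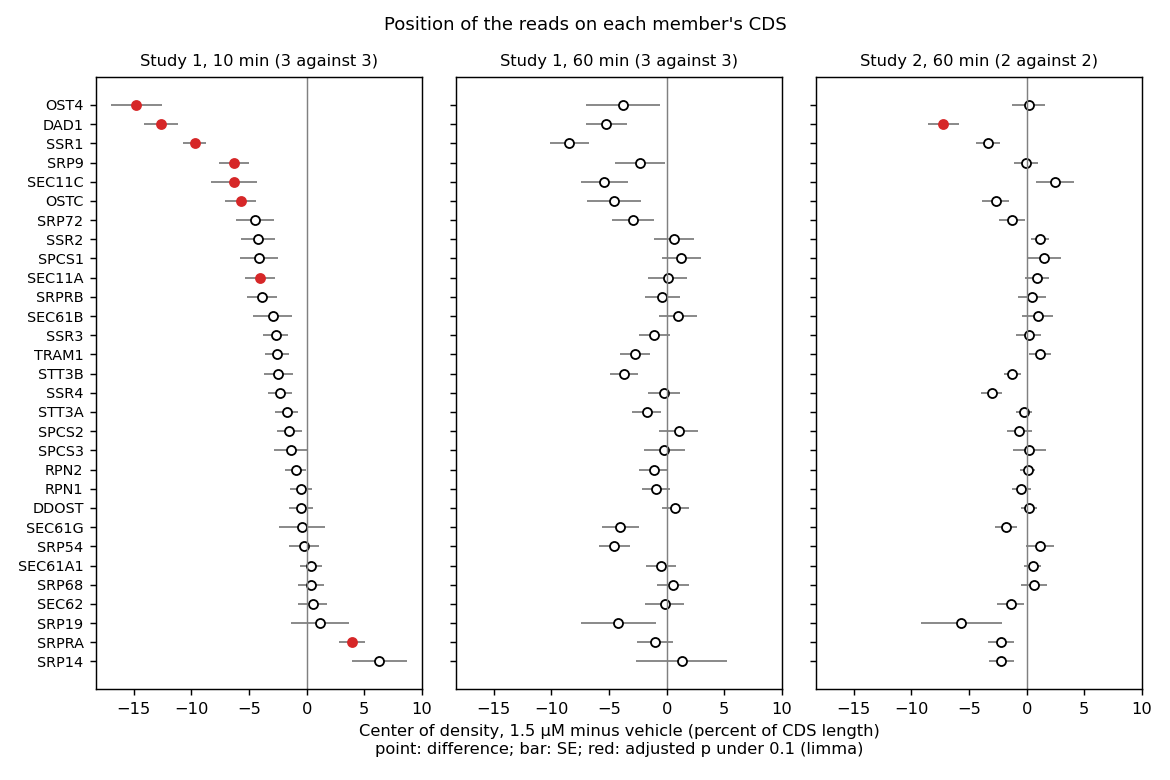
Difference in center of density between 1.5 μM and vehicle for each member, in percent of the CDS length, in study 1 at 10 min, study 1 at 60 min and study 2 at 60 min. Points are the difference, bars its standard error, and red points passed an FDR of 0.1; 8, 0 and 1 members passed, with DAD1 red in the first and last panel.

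At 60 min in study 1 no member passed, beside 0.124% of all transcripts in either direction and 0.124% toward the start, and 6 of 30 members were under an unadjusted p of 0.05, as were 5.22% of all transcripts. SSR1 had centers of 45.6, 40.1 and 39.1 against 50.4, 49.4 and 50.3, again without overlap (−8.45, standard error 1.68, adjusted p = 0.159 by limma, and 0.0124 without 1.5 μM replicate 1). Same-numbered libraries of this comparison deviated together, and with the replicate number as a block SSR1 passed (adjusted p = 0.0211 by limma). DAD1 gave 59.4, 57.6 and 54.7 against 58.9, 64.3 and 64.1, so that 1 vehicle library lay within the treated range (−5.22, standard error 1.80, adjusted p = 0.866 by limma).

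In study 2, 0.366% of all transcripts passed in either direction and 0.348% toward the start. DAD1 was the only member to pass, with 52.6 and 52.1 against 61.8 and 57.2 (−7.21, standard error 1.31, adjusted p = 0.0133 by limma). Without vehicle replicate 4 it was −4.93 and did not pass (adjusted p = 0.142 by limma), nor did it with no trend in the prior variance (adjusted p = 0.773 by limma). SSR1 gave 45.6 and 43.6 against 47.9 and 48.0 (−3.37, adjusted p = 0.556 by limma), and SSR4 51.8 and 50.7 against 54.2 and 54.4 (−3.02, adjusted p = 0.519 by limma). Neither pair of groups overlaps. OST4, with 69.1 and 69.9 against 70.6 and 68.1, did not separate. Of the members called at 10 min, SRPRA (−2.24), SEC11C (2.44), SEC11A (0.88) and OST4 (0.16) had differences of the opposite sign in study 2, none past the FDR, and SRPRA (−0.99) and SEC11A (0.09) also did so at 60 min in study 1. In mRNA-seq of the same cells DAD1 had centers of 49.8 and 51.1 against 51.3 and 53.0. These groups do not overlap either, and the difference has the same direction as in ribo-seq.

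With 0.3 μM no transcript passed at either time (0%), and 1 member at each time was under an unadjusted p of 0.05, beside 2.24 and 2.22% of all transcripts. At 10 min DAD1 lay between the other groups, with 60.6, 59.6 and 61.1 (difference from vehicle −3.45, standard error 1.25, adjusted p = 1.00 by limma). SSR1 did so too, with 47.9, 48.7 and 47.7. In both genes the 3 dose groups at 10 min did not overlap and followed the dose. Both were taken up for their shift with 1.5 μM at 10 min, so that the gap between 1.5 μM and vehicle was known beforehand. The share of all transcripts with this order of groups was not computed. The 0.3 μM and 1.5 μM comparisons share their vehicle libraries. Whether the effect of 1.5 μM differed between 10 and 60 min was tested as an interaction in limma, chosen after the data were seen. It was passed by 0 of 10414 transcripts, 858 of which were under an unadjusted p of 0.05, as were 5 of 30 members. DAD1 gave 7.40 (standard error 2.45, adjusted p = 0.526 by limma).

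**Figure D3:**
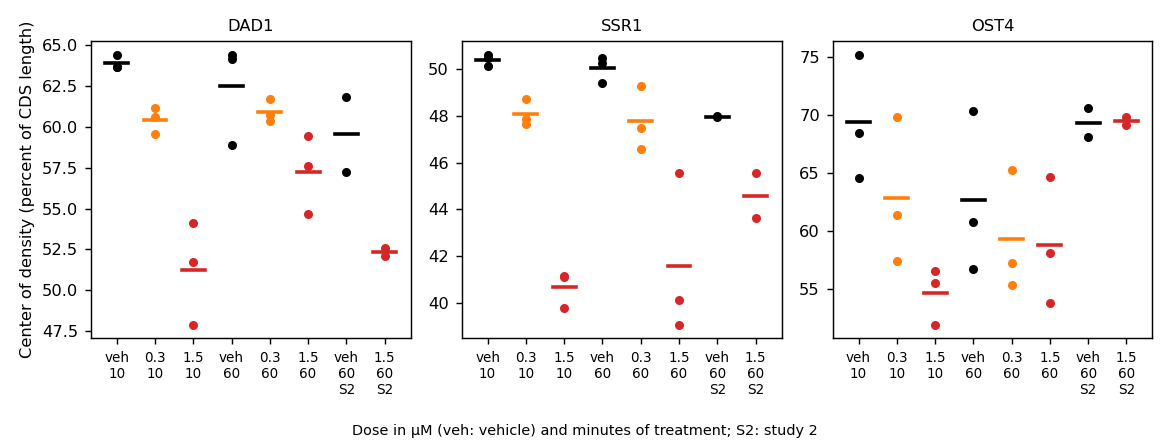
Center of density of DAD1, SSR1 and OST4, in percent of the CDS length, in each ribo-seq library. Points are libraries and bars the mean of a group of 3 (study 1) or 2 (study 2); with 1.5 μM at 10 min DAD1 lies between 47.9 and 54.1 and all vehicle libraries at 10 min lie above 63, while OST4 in study 2 overlaps its vehicle group.

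The cumulative fraction of reads along the CDS shows where the curves part. Its largest rise over vehicle, Dmax, was computed on pooled replicates and given a Z-score among transcripts of similar read count. A Z-score of 2 or more is a boundary for the next test and not a test. With 1.5 μM at 10 min it was reached by 5 of 30 members beside 3.48% of all transcripts. These were DAD1 (Dmax 0.239 at codon 54, Z 3.15), OST4 (0.237 at codon 27, Z 3.13), SSR1 (0.181 at codon 49, Z 2.39), SEC11C (0.179 at codon 78, Z 2.26) and SPCS1 (0.151 at codon 71, Z 2.02).

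At 60 min, 3 of 30 members reached it beside 2.67% of all transcripts, namely SEC61G (0.137 at codon 62, Z 3.23), SSR1 (0.124 at codon 47, Z 2.95) and DAD1 (0.0905 at codon 49, Z 2.13). In study 2 there were 2 of 30 beside 2.34%, DAD1 (0.151 at codon 56, Z 3.90) and SSR4 (0.0785 at codon 33, Z 2.92). Leaving out 1 library moved these counts to 2 to 5 at 60 min, with 5 without vehicle replicate 2 (beside 3.08% of all transcripts), and to 2 to 4 in study 2, with 4 without replicate 4 of 1.5 μM (2.43%) or of vehicle (2.46%). DAD1 was thus the member found in all 3 sets of libraries, with positions between codons 49 and 56, and SSR1 was found in 2 sets at codons 47 and 49. With 0.3 μM, OST4, SRP19 and SPCS1 reached it at 10 min beside 3.53% of all transcripts, and SEC61G and SEC11C at 60 min beside 2.37%. These counts of 3 and 2 were 6 (3.53%) and 0 (2.40%) with the last 5 codons left out. With 1 library left out they ran from 1 (2.69%, without 0.3 μM replicate 2) to 4 (3.64%, without vehicle replicate 3) at 10 min. At 60 min they ran from 1 (without 0.3 μM replicate 2, 2.40%, or vehicle replicate 1, 2.26%) to 5 (2.80%, without vehicle replicate 2). For SEC61G the boundary at 60 min lay at codon 62 of 69 with 1.5 μM and at codon 67 with 0.3 μM, and leaving out the last 5 codons turned the shift of its center at 60 min from −4.00 to 0.94 with 1.5 μM and from −3.41 to 1.38 with 0.3 μM.

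**Figure D4:**
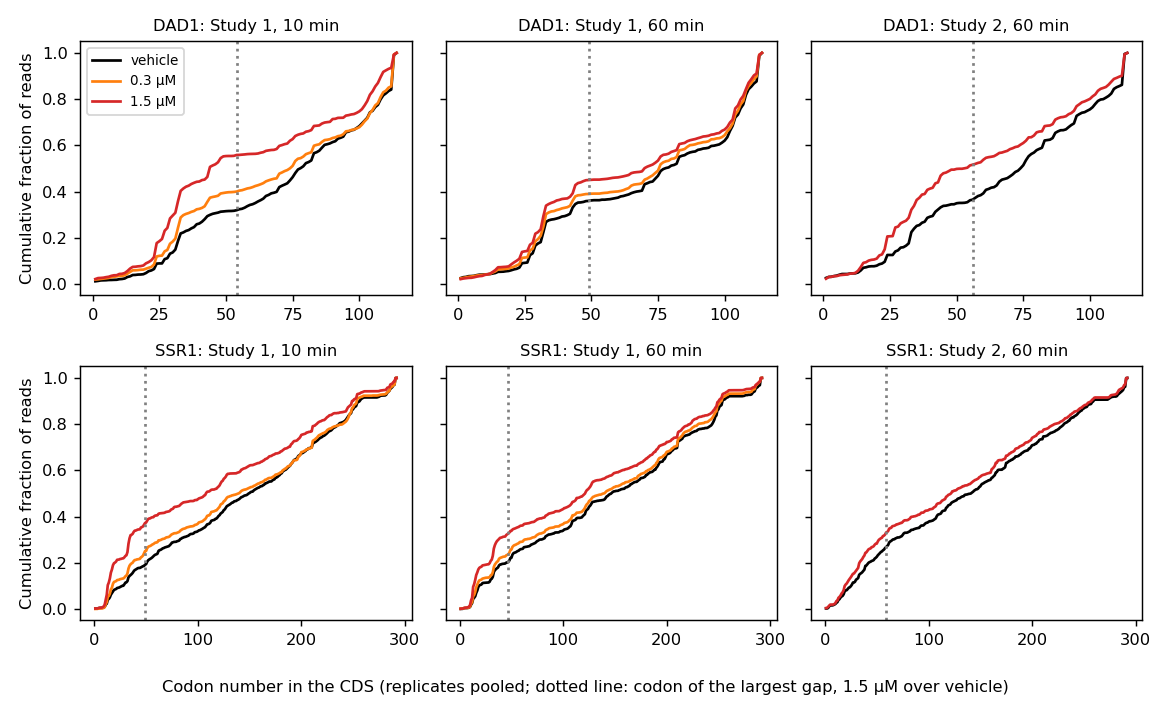
Cumulative fraction of reads along the CDS of DAD1 and SSR1, by codon number, with replicates pooled, for vehicle, 0.3 μM (study 1 only) and 1.5 μM. Dotted lines mark the codon of the largest gap; for DAD1 they stand at codons 54, 49 and 56, and the 0.3 μM curve runs between the others at 10 min.

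Reads 3′ to the Dmax codon, or after codon 50 for members under the Z-score, measure the ribosomes that passed the early part of the CDS. Since the boundary was set on the same libraries, this test is not independent of Dmax. With 1.5 μM at 10 min, 5 of 30 members were lower at an FDR of 0.1 by edgeR, beside 2.59% of all transcripts. DAD1 had 52.3, 62.3 and 64.0 CPM of such reads with 1.5 μM against 112, 114 and 121 with vehicle (log2 fold change −0.95, standard error 0.11, adjusted p = 0.00127 by edgeR). SSR1 had 114, 124 and 127 CPM against 185, 200 and 182 (−0.63, standard error 0.10, adjusted p = 0.0112 by edgeR).

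Of the signal peptidase, SEC11C had 23.1, 26.4 and 26.9 CPM against 39.7, 49.3 and 40.1 (−0.75, standard error 0.13, adjusted p = 0.0172 by edgeR). SPCS1 (−0.76, adjusted p = 0.0757) and SEC11A (−0.43, adjusted p = 0.0814), both by edgeR, were also lower. In study 2 all 3 of these had values above 0 that did not pass, with 0.09 for SEC11C, 0.20 for SPCS1 and 0.07 for SEC11A. For SEC11C and SPCS1 the values of study 2 count reads after codon 50, whereas those above count reads past codons 78 and 71. Their change of sign thus includes a change of the region counted, while SEC11A was counted after codon 50 in both. OST4 gave −0.53 and did not pass (adjusted p = 0.1001 by edgeR). Leaving out any 1 library kept the call of DAD1. The count of members was 1 without 1.5 μM replicate 1 or 2, beside 0.332 and 0.314% of all transcripts, 3 without 1.5 μM replicate 3 (1.60%) or vehicle replicate 2 (1.03%), and 9 without vehicle replicate 3 (8.64%). Without vehicle replicate 2 the boundaries of SPCS1 and OST4 changed too, and both gave 0.04.

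At 60 min 0 of 29 members were lower by edgeR, beside 0.224% of all transcripts, and 4 were under an unadjusted p of 0.05 beside 2.93% of all transcripts, of which SEC61G (−0.57, standard error 0.20), SSR1 (−0.40, standard error 0.15) and DAD1 (−0.33, standard error 0.14) had values below 0. The fourth, SPCS1, had a value above 0 (0.34, standard error 0.15), opposite in sign to that at 10 min. The regions counted differ, since its reads were taken after codon 50 at 60 min and past codon 71 at 10 min. DESeq2 likewise called 0. With the replicate number as a block, SSR1 passed (adjusted p = 0.0631 by edgeR). In study 2, DAD1 was the 1 member of 29 that passed (2 without 1.5 μM replicate 5, beside 0.940%), beside 0.337% of all transcripts, with 66.8 and 58.8 CPM against 96.3 and 91.7 (−0.58, standard error 0.09, adjusted p = 0.0178 by edgeR). SSR4 (−0.28, adjusted p = 0.505 by edgeR) and SSR1 (−0.27, adjusted p = 0.555 by edgeR) did not. With 0.3 μM no transcript was lower (0%) at either time, and 1 member at each time was under an unadjusted p of 0.05, beside 1.53 and 1.50% of all transcripts.

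The share of a member's reads that lay in its first 50 codons is a plain percentage. It is given for members singled out by the results above and was not compared with all transcripts. Reads of other transcripts also moved toward the start with 1.5 μM at 10 min. By center of density 9.47% of all transcripts passed in that direction, and their median shift was −1.23. For DAD1 at 10 min the share was 62.1, 55.3 and 50.3% with 1.5 μM, 35.0, 42.9 and 38.5% with 0.3 μM and 32.2, 29.7 and 32.7% with vehicle. The 3 groups do not overlap. At 60 min in study 1 it was 40.6, 47.2 and 53.3% with 1.5 μM against 41.98, 34.8 and 34.04%, which overlap. In study 2 it was 48.2 and 51.3% against 32.9 and 38.02%, whereas in mRNA-seq it was 45.8 and 43.3% against 43.3 and 43.1%. For SSR1 at 10 min the shares were 38.1, 37.5 and 36.8% against 20.2, 17.0 and 21.8%, and at 60 min 28.7, 42.3 and 40.8% against 20.96, 23.1 and 21.8%. In study 2 they were 26.1 and 30.04% against 22.8 and 22.3%. SSR4 at 10 min gave 26.3, 28.1 and 28.8% against 19.9, 16.2 and 17.4%, in study 2 24.3 and 26.8% against 20.0 and 18.8%, and at 60 min in study 1 24.8, 23.5 and 24.0% against 20.96, 23.4 and 22.02%, where the gap between the groups is small.

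Single codons were searched for an induced peak, defined as a mean density with 1.5 μM that exceeded vehicle by at least 5 times the mean of the CDS, with every treated library above every control library. Only CDSs with at least 1 read per codon in every library were searched, which left 29 members. At 10 min such a codon was found in 5 of 29 members, beside 22.8% of all transcripts searched. At 60 min it was found in 3 of 29 beside 7.15%, and in study 2 in 1 of 29 beside 10.0%. With 1 library left out, which makes the demand for separation easier to meet, these counts ran from 6 to 10, from 1 (without 1.5 μM replicate 2) to 13 (without 1.5 μM replicate 1) and from 0 (without 1.5 μM replicate 4) to 6 (without 1.5 μM replicate 5). The shares of all transcripts moved as well, from 19.6 to 39.9% at 10 min, to 8.26 and 37.3% in the named omissions at 60 min, and to 19.4 and 38.6% in those of study 2.

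At 10 min SSR1 had 3 such codons and SRPRA 2, and over the 3 sets SSR1, SRPRA and SRP68 each had 3 different ones. At codon 13 of SSR1, within its signal peptide, the density relative to the CDS mean was 8.67, 14.3 and 12.4 with 1.5 μM at 10 min and 6.59, 2.27 and 5.67 with vehicle. At 60 min it was 9.46, 20.6 and 19.7 against 1.72, 7.05 and 4.98. In study 2 it was 3.77 and 3.34 against 2.00 and 4.32, which overlap. SSR1 codon 33 gave 10.9, 10.1 and 11.1 against 5.93, 3.88 and 4.12 at 10 min, 7.94, 9.03 and 12.1 against 4.74, 6.07 and 6.59 at 60 min, and 5.66 and 6.15 against 4.37 and 3.73 in study 2. At this codon every treated library exceeded every vehicle library of its set, although the rise reached 5 times the CDS mean only at 10 min.

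The other peaks were each found in 1 set of libraries. At 10 min they lay at codon 493 of SRP54, 162 of SRP68, 34 and 39 of SRPRA, 34 of SSR1 and 234 of SPCS2. At 60 min they lay at codon 20 of SRP54 and codons 233 and 564 of SRP68. In study 2 the only one was codon 115 of SRPRA (27.3 and 19.8 against 18.4 and 16.8), where vehicle had the higher values at 10 min in study 1 (5.62, 4.31 and 7.00 with 1.5 μM against 7.96, 21.2 and 12.8). SPCS2 codon 234 also stood high with vehicle and was its highest codon in all 3 vehicle groups.

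Codons of DAD1 and SSR4 were looked at after their values were seen, because the rises there were repeated across sets of libraries although they were under 5 times the CDS mean in each set. A rise of at least 3 times with the same demand is common, and was found in 63.1% of all transcripts searched at 10 min, 29.7% at 60 min and 43.0% in study 2, beside 17, 7 and 8 of 29 members. DAD1 codon 44 reached 3 times only at 10 min, and SSR4 codon 20 and DAD1 codon 24 only at 10 min and in study 2. The share of all transcripts with smaller rises was not computed. At codon 44 of DAD1 the density relative to the CDS mean was 5.33, 5.00 and 4.61 with 1.5 μM at 10 min and 0.714, 0.372 and 0.866 with vehicle. It was 3.30, 3.36 and 6.19 against 1.60, 1.44 and 2.15 at 60 min, and 3.85 and 2.81 against 0.718 and 1.69 in study 2. With 0.3 μM at 10 min it was 1.30, 2.24 and 2.71, between the other groups and overlapping neither, whereas at 60 min it was 1.40, 2.00 and 3.34 and overlapped both.

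SSR4 is a TRAP subunit whose loss causes a congenital disorder of glycosylation. At its codon 20 the density was 4.16, 3.49 and 4.03 times the CDS mean with 1.5 μM at 10 min, 1.88, 0.677 and 1.74 with 0.3 μM, and 0.282, 0.426 and 0.631 with vehicle. At 60 min it was 1.15, 1.32 and 2.29 with 1.5 μM, 1.12, 0.908 and 0.875 with 0.3 μM, and 0, 0.0465 and 0.127 with vehicle. In study 2 it was 2.77 and 4.36 against 0.287 and 0.158. No treated library overlaps vehicle in any of these sets, and the dose groups of study 1 do not overlap at either time. At 60 min the doses parted only by 1.15 against 1.12, and the vehicle libraries held 15.3 reads per codon of SSR4 on average. Since the codon was chosen after its values were seen, the separation is not a test. In mRNA-seq the same codon stood at 0.848 and 0.328 with 1.5 μM against 0.383 and 0.430. An exact permutation test of 3 libraries against 3 cannot go below p = 0.1, and one of 2 against 2 not below p = 0.333.

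DAD1 codon 24 gave 10.7, 5.79 and 5.27 against 3.39, 1.49 and 2.94 at 10 min and 8.60 and 4.22 against 3.20 and 3.59 in study 2. At 60 min in study 1 the groups overlapped there, with 3.07, 1.54 and 5.03 against 0.736, 3.13 and 1.89.

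**Figure D5:**
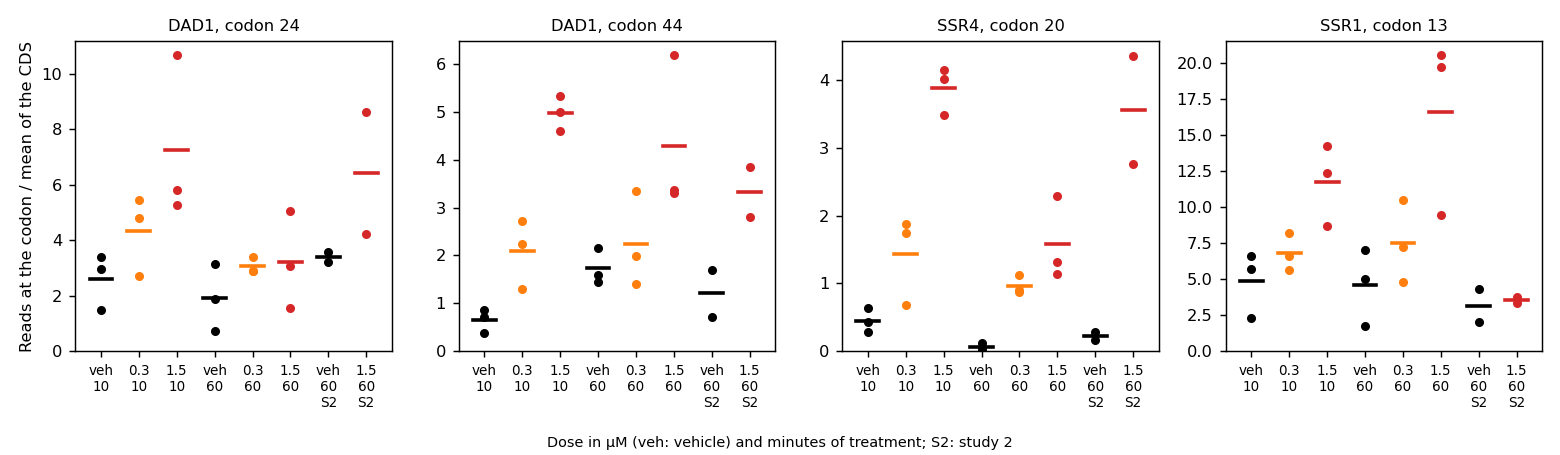
Reads at 4 codons divided by the mean reads per codon of the CDS, in each ribo-seq library, by dose and time. Points are libraries and bars the group mean; at SSR4 codon 20 and DAD1 codon 44 each 1.5 μM library exceeds each vehicle library of its set, while DAD1 codon 24 overlaps at 60 min in study 1 and SSR1 codon 13 in study 2.

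With vehicle alone, the highest codon of a member was described without a test. Among the 20 members with at least 5 reads per codon at 60 min, the highest codon between codon 16 and the 6th from the end held a median of 6.54 times the CDS mean. Over 1167 transcripts read as deeply it was 7.56 times, so that the members stood at percentile 33.5. The most prominent was codon 491 of RPN1, the subunit that contacts substrates of oligosaccharyltransferase. Its values were 17.0, 10.1 and 9.52 at 60 min and 14.4, 20.9 and 7.85 at 10 min, but 6.01 and 7.55 in study 2.
RPN1 codon 491, exon 9 of 10, minus strand, chr3:128622332-128622334: aacaagagaataGGCctttaccgtcac
Next came codon 331 of DDOST (11.4 ± 5.91, SD, n = 3), codon 548 of STT3A (9.63 ± 1.61), codon 211 of SSR1 (8.22 ± 3.16), codon 302 of TRAM1 (7.89 ± 4.85) and codon 131 of SEC61A1 (7.45 ± 5.34). Only 2 of 30 members, SPCS1 (codon 42) and SPCS2 (codon 234), had the same highest codon in all 3 vehicle groups.

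The codon before the stop was a strong site in some members and a weak one in others. It held a median of 6.45 times the CDS mean with vehicle at 10 min, 4.57 at 60 min and 8.44 in study 2. RPN1 (25.9 ± 1.39, 22.7 ± 6.99 and 31.4 ± 4.64), SEC61G (19.3 ± 3.83, 23.8 ± 7.00 and 20.5 ± 0.801) and STT3A (19.2 ± 3.86, 19.4 ± 3.30 and 18.6 ± 2.24) were high in all 3 groups (SD, n = 3, 3 and 2). SEC61A1 was the lowest member in each, at 0.186, 0.0364 and 0.235.

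The rest of the route into and through the ER was read from lists of other genes, drawn up with earlier results of these data known. The study had already listed BCAP31 and EMC7 among its stalls from these data. Of 20 other ER targeting and translocation genes 17 were found, and BCAP31, an ER membrane chaperone and sorting factor, was the only one to pass on the whole CDS. It was lower with 1.5 μM at 10 min (log2 fold change −0.98, adjusted p = 0.00155 by edgeR), at 60 min (−0.95, 0.0171) and in study 2 (−0.80, 4.02e-04), and in TE (−0.83, 0.0294). In the same order, 0.851, 0.0726, 0.115 and 0.0339% of all transcripts passed in either direction. At 10 min 5 of 17 moved toward the start by center of density, BCAP31 (−10.7), HSPA5 (−7.27), NCLN (−6.48), TMEM208 (−6.04) and SEC63 (−4.51), and none away from it, beside 9.47% of all transcripts toward the start. The list's median was −2.23, against −1.23 over all transcripts.

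Of 17 genes for tail-anchored and other membrane insertion 15 were found. EMC7, a subunit of the ER membrane protein complex, was lower on the whole CDS at 10 min (−0.70, adjusted p = 0.0570 by edgeR), beside 0.851% of all transcripts in either direction. Its center lay nearer to the start at 10 min (−15.8), at 60 min (−11.0) and in study 2 (−19.0, adjusted p = 5.71e-08 by limma). Of all transcripts, 9.47, 0.124 and 0.348% passed toward the start in these sets. EMC3 (−5.27) and EMC4 (−5.58), partners of EMC7, also moved toward the start at 10 min, where the list's median was −2.43. EMC6 was the 1 gene of the list past the FDR in the other direction, with more reads in its 3′ part at 10 min (0.70, adjusted p = 0.0987 by edgeR).

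All 24 genes of dolichol oligosaccharide assembly were found. DPM3, which anchors dolichol phosphate mannose synthase, was higher on the whole CDS at 10 min (0.67, adjusted p = 0.0729 by edgeR), beside 0.851% of all transcripts in either direction. By center of density ALG3 moved away from the start (6.56) and DPM1 toward it (−5.05), beside 10.1% of all transcripts in either direction, with a list median of −1.10. Of 10 genes of glycan trimming and glycoprotein folding, 10 were found and 2 passed at 10 min by center of density, CANX (−3.94) and PDIA3 (−4.36), both toward the start, beside 9.47% of all transcripts, with a list median of −1.51. None of the dolichol or glycan trimming genes passed at 60 min in either study.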

How the data were processed

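The authors deposited raw counts of reads at each codon, 1 table per library. They removed adapters with the Fast-X toolkit and rRNA reads with Bowtie, and aligned the rest with Bowtie 1.1.2 to the most abundant isoform of each expressed gene (kallisto 0.42.5, Ensembl, GRCh38). Reads with few equally good sites were kept and counted at each site, and the P-site was placed at a fixed offset into the read. A read from a near-identical copy can therefore be counted on more than 1 gene. Replicates were not pooled.

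Groups were taken from the labels. Transcripts were named with GENCODE v44 (11270 of 12325), then with a transcript table of the study (228), and 827 stayed unnamed. The members, the gene lists and the tests were chosen with earlier results of these data known. Differences were tested with edgeR 4.0.16 (filterByExpr, TMM, quasi-likelihood test) in R 4.3.3, with the compared groups only, no block, and Benjamini-Hochberg adjustment over all transcripts tested. Center of density was tested with limma 3.58.1 (empirical Bayes with a trend on read count). Dmax took pooled replicates, a minimum of 10 reads per group, and divided each value by the root mean square of its bin of 300 transcripts. Densities, peaks and figures used Python 3.11.15, numpy 2.4.6, pandas 2.3.3 and matplotlib 3.10.9. The steps were tested on simulated data. Genes were named by a rule: members past the FDR and the extremes of each edgeR comparison, members with a Dmax Z-score of at least 2, a shift or an induced peak, the 6 highest pauses, and the extremes of density and TE per complex.

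Total CDS reads were 6414227 to 22224137 in study 1, 8888459 to 13736874 in ribo-seq of study 2 and 15227654 to 22036358 in its mRNA-seq. Same-numbered libraries were checked for pairing by the correlation of their deviations from the group means. Every pair was over 0.1 for 1.5 μM at 60 min (0.548, 0.419 and 0.593), for 0.3 μM at 10 min (0.216, 0.153 and 0.582) and for 0.3 μM at 60 min (0.456, 0.454 and 0.597), so that the numbers were taken to pair these libraries. For 1.5 μM at 10 min they did not (0.215, 0.250 and 0.0529). In study 2 both pairs gave 0.317 in ribo-seq and 0.0935 in mRNA-seq, and with 2 libraries a group these are not separate values. Alternatives were DESeq2 1.42.0, its size factors in edgeR, other filters, codons and thresholds, the replicate number (for TE, the culture) as a block, and leaving out each library.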

Additional observations from a re-analysis of the deposited data

Results flagged for a closer look

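The groups hold 2 or 3 libraries, which is too few for a check of single libraries that stand apart. Among members tested for an interaction of 1.5 μM with time, 0 passed on the whole CDS or by center of density. Of 142 combinations of member and measure, 15 had every 1.5 μM library above every vehicle library in 1 set and below in another. The share of all transcripts with such a reversal was not computed, so that this count is not a result about the members. Whether the difference changed between those sets was not tested, other than by the interaction with time, and with 2 libraries a group in study 2 separation is easy to reach. Where study 2 is set against study 1 at 10 min, study and time cannot be told apart from those 2 sets alone.

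By center of density, 5 members had opposite differences between 1.5 μM and vehicle. SRPRA gave 3.95 in study 1 at 10 min and −2.24 in study 2, while SEC11A gave −4.06 and 0.88, SEC11C −6.28 and 2.44, and SSR2 −4.19 and 1.12. Within study 1 at 10 min the shifts of SRPRA, SEC11A and SEC11C passed the FDR (adjusted p = 0.0579, 0.0810 and 0.0827 by limma). At 60 min in study 1 the differences were −0.99 for SRPRA, 0.09 for SEC11A, −5.39 for SEC11C and 0.65 for SSR2, none past the FDR. TRAM1 gave −2.57 at 10 min and −2.74 at 60 min in study 1, and 1.15 in study 2. On the whole CDS, SSR2 differed by 37.3 CPM in study 1 at 10 min and by −24.7 CPM in study 2. Its reads 3′ to the boundary differed by 27.6 CPM in study 1 at 60 min and by −13.96 CPM in study 2.

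In the share of reads in the first 50 codons the differences, in percentage points, were 2.95 (study 1, 60 min) and −1.94 (study 2) for SRP54. They were 0.987 (study 1, 10 min) and −0.786 (study 1, 60 min) for SRP68. TRAM1 gave 2.28 and DDOST 1.74 in study 1 at 10 min, against −1.28 and −0.174 in study 2. The codons of SRP68 and SRPRA that follow were taken up because each had an induced peak in 1 set. Its rise in that set was thus fixed by the choice, and only the fall in the other set was not. In density relative to the CDS mean, SRP68 codon 564 gave 5.94 (study 1, 60 min) and −0.792 (study 2). For SRPRA, study 1 at 10 min and study 2 gave 5.38 and −1.80 at codon 34, 10.02 and −2.93 at codon 39, and −8.36 and 5.91 at codon 115.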

How the results depend on the processing

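Counts of members kept their value within 1.5 times under most alternatives, and the cause of each change below was not tested. In study 1 at 10 min with 1.5 μM, 0 members passed on the whole CDS, against 4 with DESeq2 (516 of all transcripts in place of 94) and 2 (1.41% of all transcripts) over codons 16 to the 6th from the end. Of the 5 members with fewer reads 3′ to Dmax or codon 50, 3 were left at an FDR of 0.05 and 1 among members read on the canonical CDS. Of the 8 with a shift of the center of density, 2 were left with no trend in the prior variance (94 of all transcripts in place of 1079), 2 by a mean Z-score of same-numbered pairs beyond 3 (0.273%), and 5 on the canonical CDS, where the 5 members with a Dmax Z-score of at least 2 came to 2. At 60 min the pair Z-score called 1 member by center of density (0.191%). In study 2 no trend in the prior variance left 0 in place of 1. With 0.3 μM the Dmax count of 3 at 10 min was 6 (3.53%) with the last 5 codons left out and 1 on the canonical CDS, and that of 2 at 60 min was 0 (2.40%) and 1. With the last 5 codons left out, the shift of SEC61G at 60 min turned to 0.94 with 1.5 μM and 1.38 with 0.3 μM. Members with an induced peak numbered 17, 7 and 8 in place of 5, 3 and 1 (study 1 at 10 and 60 min, then study 2) with a height of 3 times the CDS mean, beside 63.1, 29.7 and 43.0% of all transcripts, 1, 1 and 0 with 10 times (3.00, 1.83 and 0.842%), and 3 at 10 min on the canonical CDS. Median footprint density of the members at 10 min was 280.3 in place of 260.7 RPKM without the outer codons. Restricting members to those named by GENCODE or read on the canonical CDS, and the interaction of time and center of density, were chosen after seeing the data.

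With the replicate number as a block, the members called at 10 min with 1.5 μM came to 5 on the whole CDS (10.8% of all transcripts) and 8 by reads in the 3′ part (6.25%), and in study 2 to 1 (1.15%) and 3 (1.08%). At 10 min the lowest correlation of a pair was 0.0529, so that there the numbers were not taken to pair the libraries. In study 2 the correlation was 0.317 in ribo-seq, which is over 0.1, and 0.0935 in mRNA-seq. With 2 libraries a group both pairs give the same value, so that pairing in study 2 is uncertain. In the comparisons of study 1 where the numbers were taken to pair the libraries, the block called SSR1 alone at 60 min with 1.5 μM. It did so by reads in the 3′ part (0.635% of all transcripts) and by center of density (0.324%), and changed no other call.

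Leaving out each library in turn gave, at 10 min with 1.5 μM, 0 to 7 members on the whole CDS, 1 to 9 by reads in the 3′ part, 3 to 12 by center of density and 4 to 5 by Dmax. The shares of all transcripts moved widely too, as given above for the whole CDS, the 3′ part and the center of density. For Dmax at 10 min they are not given here. At 60 min with 1.5 μM the omissions gave 0 to 1 by center of density, without shares of all transcripts here, and 2 to 5 by Dmax. With 0.3 μM, Dmax gave 1 to 4 at 10 min and 1 to 5 at 60 min (2.69 to 3.79% and 2.26 to 2.80% of all transcripts). In study 2, where 1 library is then left in a group and is assumed to vary like the other group, it gave 1 to 2 by reads in the 3′ part, 0 to 1 by center of density and 2 to 4 by Dmax. Induced peaks ran from 6 to 10, from 1 to 13 and from 0 to 6, beside shares of all transcripts that moved as given above. Where no share of all transcripts is given for a range, the range is not a result about the members. Log2 fold changes that turned were those of reads in the 3′ part for SPCS1 (−1.27 to 0.0397) and OST4 (−0.64 to 0.0428) at 10 min with 1.5 μM, SRP19 (−0.84 to 0.25) at 10 min with 0.3 μM and SEC11C (−0.27 to 0.0998) at 60 min with 0.3 μM. On the whole CDS they were those of OSTC at 60 min with 1.5 μM (−0.29 to 0.0159) and 0.3 μM (−0.27 to 0.0445), and in mRNA-seq those of SPCS3 (−0.38 to 0.0241) and SRP72 (−0.0747 to 0.24). For members named singly, over all alternatives, 433 values kept direction and side of the threshold, 38 lost the call, 17 gained it and 14 turned. Depth limits the members with few reads most, at 58 to 23013 reads per member and library.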
